A study of Mus musculus with 11 samples.

Results

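The genes of cholesterol and fatty acid synthesis were followed through 4 populations of epidermal cells sorted from mouse dorsal skin. The 27 genes were taken by name from the 55536 Ensembl genes counted, by a rule with no threshold on a measured value, though with earlier results of these data known: 18 encode enzymes that make cholesterol, 6 encode regulators of the pathway or a sterol carrier, and 3 encode enzymes of fatty acid synthesis. All 27 were detected and passed the filter on low counts, as did 20307 genes in all. None of the 27 genes reached the combined threshold in the comparisons below (edgeR on all 11 libraries, 2-fold difference at an adjusted p under 0.05). The few smaller differences that did pass the test on its own concerned Hmgcs1, Acat2 and Insig1. With the replicate number as a block, only that of Acat2 passed.

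Cells build cholesterol from acetyl-CoA through mevalonate and squalene to lanosterol, which a last series of enzymes converts to cholesterol, and they build fatty acids from the same acetyl-CoA. Transcription of both routes is driven by the SREBP proteins, which SCAP carries out of the endoplasmic reticulum when sterols are low and which INSIG proteins hold back when sterols are high. In skin, keratinocytes use these lipids for membranes and for the permeability barrier, and sebocytes of the sebaceous gland make them in bulk for sebum.

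All mice were male, on the C57Bl6/N background, and carried CD4Cre together with R26-tdT, so that cells in which the Cd4 promoter had driven Cre, and their progeny, were tdT+. Cells were sorted as CD49f+CD34+Sca-1neg (bulge cells of the hair follicle) or CD49f+CD34+Sca-1+ (SCA-1+ cells), each into tdT+ and tdTneg, which gave 3 tdT+ bulge, 3 tdTneg bulge, 3 tdT+ SCA-1+ and 2 tdTneg SCA-1+ libraries. Each library held the cells of 2 mice, aged 29 weeks for replicate 1 and 32 weeks for replicates 2 and 3. The Cd4 promoter is also active in T cells, so tdT itself does not tell a keratinocyte from a T cell.

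The libraries held between 17409131 and 46542177 counts, of which the 27 genes took 0.229% to 0.293%. Bulge markers summed to 11467 to 21963 CPM (library counts scaled to a common total) in the bulge libraries and to 4394 to 7363 CPM in the SCA-1+ libraries, where Cd34 itself was at 22.3 to 383 CPM against 468 to 1130 CPM in the bulge libraries. T cell markers summed to 242 to 737 CPM in tdT+ SCA-1+ libraries and to at most 58.3 CPM elsewhere, and endothelial markers to 1676 and 1789 CPM in the tdTneg SCA-1+ libraries. The library labelled tdT+ bulge replicate 2 carried 2.05 CPM of the single count row outside the Ensembl genes, which reached 133 to 307 CPM in the other tdT+ libraries and 2.54 to 4.89 CPM in tdTneg libraries, and its endothelial markers summed to 441 CPM. The row has no gene name in the files, it may hold counts of the tdT reporter, and whether the cells of this library were tdT+ cannot be told here. The main differences that rest on this library are given with and without it. How far other cell types took part in the results was not tested, and in such bulk libraries fewer cells of a type and less RNA per cell cannot be told apart.

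The promoters of the 3 genes that passed the test between the populations are shown because they differ in the letters associated with SREBP regulation. The windows are from RefSeq on GRCm38.p6, run 5′ to 3′ on the gene's strand, and cover 250 bases before to 50 bases after a start site. Capitals mark the sterol regulatory element TCACNCCAC, the NF-Y box CCAAT and the GC box GGGCGG, each searched on both strands. Hmgcs1 lies at chr13:119690101-119690400 on the plus strand, Insig1 at chr5:28071162-28071461 on the plus strand and Acat2 at chr17:12960676-12960975 on the minus strand.
Hmgcs1: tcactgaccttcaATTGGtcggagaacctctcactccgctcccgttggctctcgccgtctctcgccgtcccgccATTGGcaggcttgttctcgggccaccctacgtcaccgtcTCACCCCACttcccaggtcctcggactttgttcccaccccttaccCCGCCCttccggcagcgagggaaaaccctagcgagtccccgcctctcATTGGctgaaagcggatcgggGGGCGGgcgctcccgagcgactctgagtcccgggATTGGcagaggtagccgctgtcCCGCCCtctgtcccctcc
Insig1: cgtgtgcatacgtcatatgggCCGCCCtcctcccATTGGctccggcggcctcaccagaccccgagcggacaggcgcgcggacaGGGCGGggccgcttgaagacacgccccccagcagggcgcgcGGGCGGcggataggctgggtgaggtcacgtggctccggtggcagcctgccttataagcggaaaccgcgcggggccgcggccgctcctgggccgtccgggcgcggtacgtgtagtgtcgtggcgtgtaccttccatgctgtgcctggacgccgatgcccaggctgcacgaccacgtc
Acat2: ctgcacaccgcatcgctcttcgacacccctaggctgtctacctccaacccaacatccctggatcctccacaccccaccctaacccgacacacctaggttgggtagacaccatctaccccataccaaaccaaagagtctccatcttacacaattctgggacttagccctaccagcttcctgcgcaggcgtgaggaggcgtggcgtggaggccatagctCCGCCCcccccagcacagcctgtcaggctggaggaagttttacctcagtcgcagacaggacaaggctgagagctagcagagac

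The Hmgcs1 window held 1 sterol regulatory element, which began 137 bases before the start site, together with 4 NF-Y boxes and 3 GC boxes. The Insig1 window held 1 NF-Y box and 3 GC boxes, and the Acat2 window held 1 GC box alone. RefSeq windows were found for 23 of the 27 genes, 31 windows in all, the others being Fdps, Fdft1, Sqle and Stard4. Hmgcs1 was the 1 gene of the 23 with TCACNCCAC, which occurred in 1.24% of all 32851 windows. With the looser spelling TCACNCNAC, Nsdhl joined it, against 2.703% of all windows. CCAAT occurred in 21 of the 31 windows (67.7%) against 37.4% of all windows, and GGGCGG in 24 of the 31 (77.4%) against 35.7%. Among windows of protein-coding genes the shares were 38.2% for CCAAT and 46.2% for GGGCGG. These matches describe the letters of the windows and were not tested.

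The level of expression differed widely between the genes. Levels were scaled to the merged length of all annotated exons of a gene. The mean over the 11 libraries was highest for Hmgcs1, the enzyme that makes HMG-CoA, at 74.9 ± 20.4 CPM per kb (SD, n = 11). Acly, which supplies cytosolic acetyl-CoA, followed with 44.6 ± 2.47 CPM per kb, and the SREBP genes Srebf2 and Srebf1 with 39.3 ± 4.65 and 35.2 ± 4.78 CPM per kb. At the lower end stood Idi1, the isopentenyl diphosphate isomerase, with 1.53 ± 0.318 CPM per kb, and Acaca, the acetyl-CoA carboxylase, with 2.14 ± 0.735 CPM per kb. These low levels are uncertain, since reads that match a near-identical copy may not have been counted: transcripts of Gm5182 match Acaca at 99.9% identity over up to 6118 bases, and those of Gm13502 and Gm35570 match Idi1 at 100% and 97.7% over up to 684 and 681 bases. Transcripts of Gm3571 likewise match Fdps, also among the lowest at 2.72 ± 1.36 CPM per kb, at 99.2% over up to 1062 bases. In the order of levels, the gap to the next gene was larger than the SD of both genes for only 3 of 26 neighbouring pairs: Hmgcs1 above Acly, Acly above Srebf2, and Lss above Tm7sf2. The order also depends on the merged exon length (10787 bases for Lss, 17074 for Acaca), which can exceed that of the transcripts expressed. The genes were well expressed for this data set, with a median level of 60.95 normalized CPM against 10.1 for all tested genes (each the mean over 11 libraries, not scaled to length).

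Across libraries, 11 of the 27 genes varied by less than 2-fold between the lowest and the highest library. Acly varied least, from 215 to 256 normalized CPM, a ratio of 1.19. The SREBP genes were nearly as even, at 159.97 to 241 normalized CPM for Srebf1 and 229 to 335 for Srebf2, which are ratios of 1.51 and 1.46. The 5 genes with a ratio of 3 or more were Sc5d, Tm7sf2, Fdps, Insig1 and Mvd. Of the 27 genes, 12 had their highest level in tdT+ bulge replicate 1 and 7 in tdT+ SCA-1+ replicate 3, while 9 had their lowest in tdT+ SCA-1+ replicate 2. The map of levels by library shows this spread within the sorted groups.

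**Figure D1:**
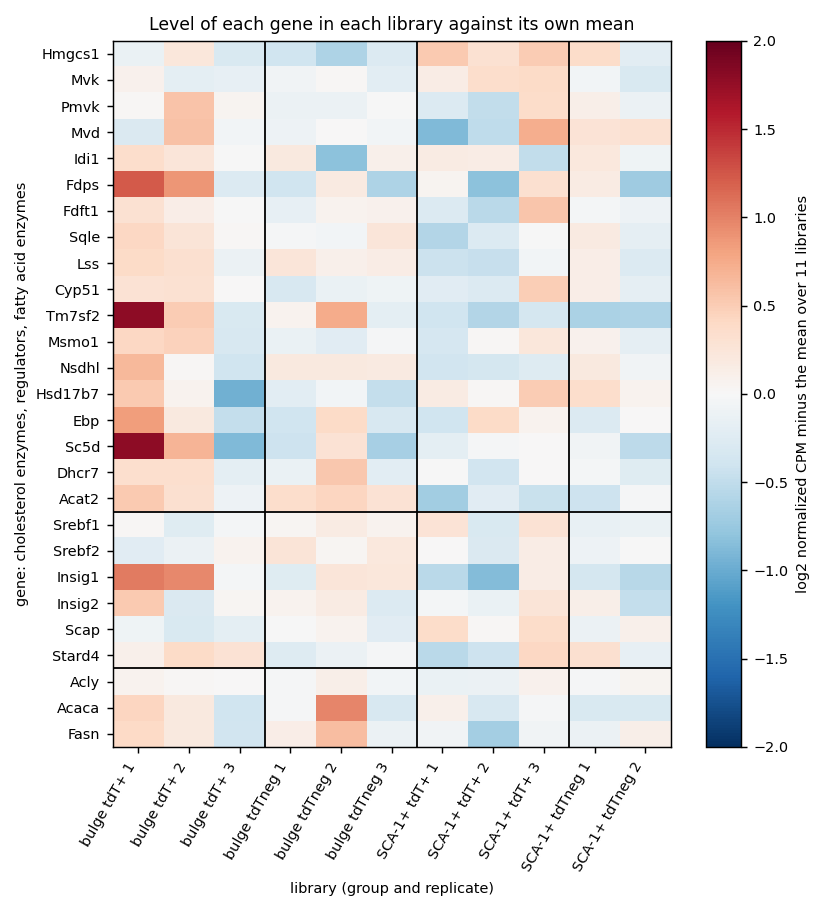
Level of the 27 genes (rows; lines separate cholesterol enzymes, regulators and fatty acid enzymes) in the 11 libraries (columns; lines separate the 4 sorted groups), as log2 normalized CPM minus the gene's mean over all libraries. Red in tdT+ bulge replicate 1, where 12 genes had their highest level, is strongest for Sc5d and Tm7sf2, whereas Acly is nearly even.

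The first question was whether SCA-1+ cells differed from bulge cells in these genes, as a mean over tdT+ and tdTneg. Across all genes, 11.6% were called at an adjusted p under 0.05 with an absolute log2 fold change over 1 (edgeR quasi-likelihood test, Benjamini-Hochberg adjustment), and 0 of the 27 genes were. At an unadjusted p under 0.05 there were 6 of the 27 against 34.4% of all genes, and DESeq2 called 1 of the 27, Tm7sf2, against 16.4% of the genes it gave an adjusted p. At an adjusted p under 0.05 without the fold threshold there were 3 of the 27 against 19.3% of all genes: Hmgcs1 was higher and Acat2 and Insig1 were lower in SCA-1+ cells. The median log2 fold change of the 27 genes was -0.12, with 5 genes above and 22 below 0, and that of all genes was -0.09. By role, the median was -0.13 for the 18 cholesterol enzymes, -0.08 for the 6 regulators and -0.30 for the 3 fatty acid enzymes. In the fit of the 12633 genes with at least 10 counts in every library, the median of all genes was -0.0012.

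Hmgcs1 stood at 304, 390 and 269.97 normalized CPM in the tdT+ bulge libraries and at 253, 217 and 275 in the tdTneg bulge libraries. It stood at 476, 409 and 475 normalized CPM in the tdT+ SCA-1+ libraries and at 431 and 286 in the tdTneg SCA-1+ libraries. The populations overlapped because tdTneg SCA-1+ replicate 2 (286) lay below tdT+ bulge replicates 1 and 2, whereas within either tdT status all SCA-1+ libraries lay above all bulge libraries. The log2 fold change was 0.51 (SE 0.15, a ratio of 1.43, edgeR adjusted p = 0.0362). When the library labelled tdT+ bulge replicate 2 was left out, it was 0.59 (edgeR adjusted p = 0.0225). Gm48342, an antisense gene, shares 12.1% of the exon bases of Hmgcs1, and without known strand their reads cannot be told apart.

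Acat2, whose cytosolic thiolase makes acetoacetyl-CoA at the start of the pathway, stood at 25.4, 21.96 and 16.5 normalized CPM in tdT+ bulge and at 22.6, 23.6 and 21.5 in tdTneg bulge libraries. The SCA-1+ libraries lay lower, at 10.9, 15.05 and 12.9 normalized CPM in tdT+ and 13.2 and 17.4 in tdTneg cells, and overlapped the bulge libraries only in that last value. The log2 fold change was -0.64 (SE 0.17, a ratio of 0.643, edgeR adjusted p = 0.0264). When the library labelled tdT+ bulge replicate 2 was left out, it was -0.63 (edgeR adjusted p = 0.0476). The value is uncertain because the transcripts of Acat3 match those of Acat2 at 99.8% identity over up to 1477 bases, and counting could split their reads. Transcripts of Tcp1, which had up to 8080 counts in a library against at most 1093 for Acat2, match those of Acat2 at 98.7% identity over up to 445 bases. Acat3 stood at 8.93, 10.5 and 10.3 normalized CPM in tdT+ bulge replicates 1 and 2 and tdTneg bulge replicate 2, and at 0 to 0.937 elsewhere. The sum of both was 17.4 to 34.3 normalized CPM in bulge and 11.4 to 17.6 in SCA-1+ libraries.

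Insig1, which retains SCAP when sterols are abundant, was at 91.7, 86.7 and 43.4 normalized CPM in tdT+ bulge and at 37.6, 52.8 and 52.4 in tdTneg bulge libraries. It was at 30.9, 24.6 and 49.5 normalized CPM in tdT+ SCA-1+ and at 35.2 and 30.3 in tdTneg SCA-1+ libraries. High levels occurred in 2 of the 3 tdT+ bulge libraries, and the other libraries of the populations overlapped. The log2 fold change was -0.81 (SE 0.24, edgeR adjusted p = 0.0429). It was -0.75 with an edgeR adjusted p of 0.0775 when the library labelled tdT+ bulge replicate 2 was left out. With the replicate number as a block, Acat2 alone of the 3 genes kept an adjusted p under 0.05 (edgeR: 0.0283 for Acat2, 0.0601 for Hmgcs1 and 0.0701 for Insig1).

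The differences of these 3 genes lay near the threshold, and leaving out single libraries moved them across it. Acat2 kept an edgeR adjusted p under 0.05 without tdT+ bulge replicate 2 or 3, tdTneg bulge replicate 3 or tdT+ SCA-1+ replicate 2 or 3, and lost it without any of the other 6 libraries (0.0502 to 0.153). Hmgcs1 kept it without tdT+ bulge replicate 2, tdTneg bulge replicate 3, tdT+ SCA-1+ replicate 2 or tdTneg SCA-1+ replicate 2, and lost it without any of the other 7 (0.0596 to 0.223). Insig1 kept it without tdT+ bulge replicate 3, tdTneg bulge replicate 1 or tdT+ SCA-1+ replicate 3, and lost it without any of the other 8 (0.073 to 0.189). With a library left out, the log2 fold change ran from -0.72 to -0.55 for Acat2, from 0.35 to 0.68 for Hmgcs1 and from -0.98 to -0.69 for Insig1.

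Tm7sf2, a sterol C14 reductase, was the 1 gene of the 27 whose SCA-1+ and bulge libraries did not overlap, a pattern shown by 10.8% of all genes. It stood at 39.5, 16.3 and 9.26 normalized CPM in tdT+ bulge, 12.0, 19.1 and 9.95 in tdTneg bulge, 8.66, 7.67 and 8.93 in tdT+ SCA-1+, and 7.40 and 7.46 in tdTneg SCA-1+ libraries. The SCA-1+ libraries were tightly grouped, and the bulge libraries were spread, with the highest value in tdT+ bulge replicate 1. The log2 fold change was -1.12 (SE 0.36, edgeR adjusted p = 0.0519), past the fold threshold but not the test. It was -0.74 (adjusted p = 0.0812) without tdT+ bulge replicate 1, -1.21 (adjusted p = 0.0566) without the library labelled replicate 2 and -1.30 (adjusted p = 0.0141) without tdT+ bulge replicate 3. Vps51 shares 12.1% of the exon bases of Tm7sf2 on the same strand, so part of the reads could belong to either gene.

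**Figure D2:**
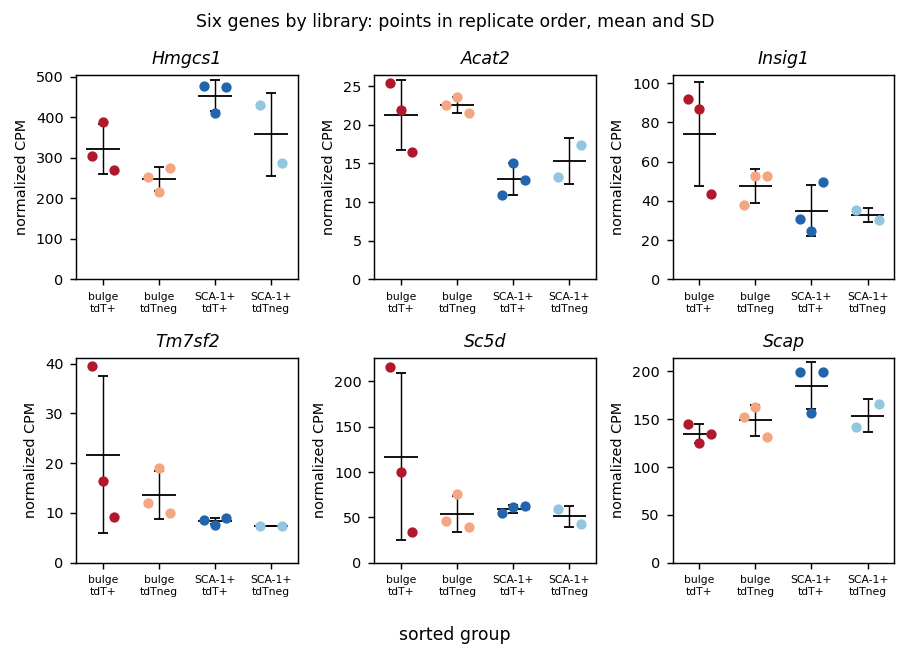
Normalized CPM of Hmgcs1, Acat2, Insig1, Tm7sf2, Sc5d and Scap in each library (points, in replicate order), with the mean (line) and SD (bar) of each sorted group (n = 3, and n = 2 for tdTneg SCA-1+). Hmgcs1 lies higher and Acat2 lower in the SCA-1+ groups, and the tdT+ bulge points of Sc5d run from 34.001 to 216.

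The comparison was repeated by age for these 4 genes. In the 29-week libraries, of which there is 1 per group and therefore no test, the difference in log2 normalized CPM was 0.71 for Hmgcs1, -0.997 for Acat2, -0.83 for Insig1 and -1.44 for Tm7sf2. In the 32-week libraries the log2 fold change was 0.32 for Hmgcs1, -0.42 for Acat2, -0.81 for Insig1 and -0.80 for Tm7sf2, with edgeR adjusted p-values of 0.501, 0.456, 0.338 and 0.401. The directions were alike at both ages, and none of the 4 genes passed the test in the 32-week libraries alone, where the tdTneg SCA-1+ group has 1 library that is assumed to vary like the other groups.

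None of the remaining enzymes of the mevalonate and squalene steps passed the test. Mvk and Pmvk, the kinases that phosphorylate mevalonate, had log2 fold changes of 0.14 (SE 0.11) and -0.12 (SE 0.18), and Mvd, the decarboxylase that follows, 0.08 (SE 0.29). Idi1 and Fdps, which make and join isoprene units, had -0.03 (SE 0.27) and -0.39 (SE 0.34). Fdft1, the squalene synthase, had -0.11 (SE 0.18), Sqle, the squalene epoxidase, -0.28 (SE 0.14), and Lss, which closes the ring to lanosterol, -0.37 (SE 0.13, 95% interval -0.67 to -0.07). The edgeR adjusted p was 0.172 for Sqle and 0.0815 for Lss and higher for the other genes of these steps. Fdft1 shares 18.3% of its exon bases with Ctsb on the opposite strand and Fdps shares 26.7% with Gm43738 on the same strand, which limits how far their counts are their own.

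None of the enzymes from lanosterol to cholesterol passed the test either, Tm7sf2 included. Cyp51, which removes the methyl group at C14, had a log2 fold change of -0.0048 (SE 0.16), and Msmo1, which oxidizes the C4 methyl groups, -0.07 (SE 0.16). Nsdhl and Hsd17b7, the other members of the C4 demethylation complex, had -0.31 (SE 0.18) and 0.35 (SE 0.23), so that enzymes of 1 complex lay on either side of 0 without passing the test. Ebp, the sterol isomerase, had -0.15 (SE 0.26), Sc5d, the C5 desaturase, -0.52 (SE 0.39) and Dhcr7, which reduces 7-dehydrocholesterol, -0.27 (SE 0.17). Among these 7 genes the lowest edgeR adjusted p was 0.260, for Nsdhl.

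Of the regulators beside Insig1, Srebf1 and Srebf2 had log2 fold changes of -0.02 (95% interval -0.29 to 0.25) and -0.09 (-0.34 to 0.16). Insig2 had -0.12 (SE 0.18), and Stard4, a cytosolic sterol carrier, -0.07 (SE 0.18). Scap, the SREBP escort, stood at 146, 125 and 135 normalized CPM in tdT+ bulge, 153, 162 and 131 in tdTneg bulge, 199, 156 and 199 in tdT+ SCA-1+, and 142 and 166 in tdTneg SCA-1+ libraries. Its 2 highest values were tdT+ SCA-1+ libraries, and its log2 fold change was 0.25 (SE 0.11, edgeR adjusted p = 0.127). A transcript of unknown type, 5830462I19Rik, shares 13.2% of the exon bases of Scap on the opposite strand.

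The fatty acid enzymes showed no difference that passed the test. Acly had a log2 fold change of -0.04 with a 95% interval of -0.24 to 0.15. Acaca had -0.41 (SE 0.25) and Fasn, the fatty acid synthase, -0.30 (SE 0.20), with edgeR adjusted p-values of 0.279 and 0.320. Fasn stood at 397, 346 and 231 normalized CPM in tdT+ bulge, 330, 462 and 277 in tdTneg bulge, 287, 188 and 287 in tdT+ SCA-1+, and 277 and 327 in tdTneg SCA-1+ libraries. Both Fasn and Acaca were highest in tdTneg bulge replicate 2, at 462 and 68.9 normalized CPM.

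A p that misses the threshold does not show that the populations are alike, so the intervals were compared with a 2-fold difference. For 22 of the 27 genes the 95% interval of the log2 fold change lay between -1 and 1, against 39.99% of all tested genes and 67.5% of the 11622 genes whose mean level was at least that of the lowest of the 27. The intervals of Acat2, Insig1, Tm7sf2, Fdps and Sc5d reached past a 2-fold difference. The median absolute log2 fold change was 0.25 for the 27 genes and 0.50 for all genes. These medians are not matched for level, and the median half-width of the 95% interval was 0.40 for the 27 and 0.71 for all genes.

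**Figure D3:**
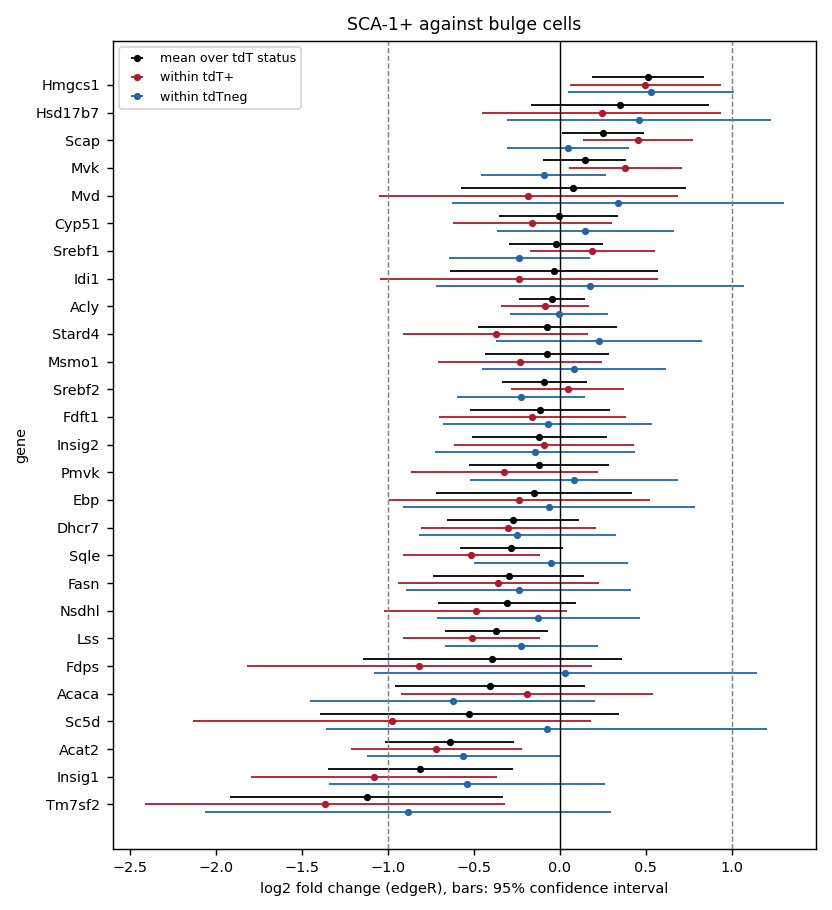
Log2 fold change of the 27 genes between SCA-1+ and bulge cells (positive: higher in SCA-1+), as the mean over tdT status (black), within tdT+ (red) and within tdTneg (blue), with 95% confidence intervals and dashed lines at a 2-fold difference. Hmgcs1 is at the top with 0.51 and Tm7sf2 at the bottom with -1.12 for the mean, and most intervals include 0.

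Within tdT+ cells, 3 SCA-1+ libraries were set against 3 bulge libraries. Here 8.45% of all genes and 0 of the 27 were called by edgeR, while DESeq2 called 2 of the 27, Insig1 and Tm7sf2, against 15.2% of all genes. At an unadjusted p under 0.05 there were 8 of the 27 against 30.5% of all genes. Insig1 had a log2 fold change of -1.08 (SE 0.32, edgeR adjusted p = 0.0548) and Tm7sf2 of -1.37 (SE 0.47, adjusted p = 0.0842). Acat2 (-0.72, SE 0.22), Scap (0.45, SE 0.14), Lss (-0.51, SE 0.18) and Sqle (-0.51, SE 0.18) had smaller log2 fold changes. Their edgeR adjusted p-values were 0.0626, 0.066, 0.0869 and 0.0886. Mvk (0.38, SE 0.15) and Hmgcs1 (0.50, SE 0.20) had edgeR adjusted p-values of 0.112 and 0.120. The 27 genes had a median log2 fold change of -0.23, and all genes of -0.07.

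Insig1 and Tm7sf2 depended on single libraries. Without tdT+ bulge replicate 3, edgeR called Insig1 (-1.35), Tm7sf2 (-1.73) and Sc5d (-1.41), with adjusted p-values of 0.0170, 0.0244 and 0.0335. Without tdT+ SCA-1+ replicate 3 it called Insig1 (-1.41, adjusted p = 0.0335). Without tdT+ bulge replicate 1 it called 0 of the 27, and the log2 fold changes were smaller, at -0.90 for Insig1, -0.60 for Tm7sf2 and -0.18 for Sc5d, with edgeR adjusted p-values of 0.154, 0.324 and 0.834. Without the library labelled tdT+ bulge replicate 2 it called 0 of the 27 as well, with -0.95 for Insig1 (edgeR adjusted p = 0.125), -1.54 for Tm7sf2 (0.0983) and 0.66 for Hmgcs1 (0.0787), which had 0.50 with it.

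Within tdTneg cells, 2 SCA-1+ libraries were set against 3 bulge libraries. By edgeR 4.74% of all genes and 0 of the 27 were called, and DESeq2 called 0 as well, against 13.3% of all genes. At an unadjusted p under 0.05 there were 2 of the 27, Hmgcs1 and Acat2, against 21.1% of all genes. Hmgcs1 had a log2 fold change of 0.53 (SE 0.22, edgeR adjusted p = 0.197) and Acat2 of -0.56 (SE 0.25, adjusted p = 0.237). These sizes stand beside 0.50 and -0.72 within tdT+. The 27 genes had a median log2 fold change of -0.07, and all genes of -0.13.

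The second question was whether tdT+ cells, the progeny of cells with CD4Cre activity, differed from tdTneg cells of the same population. In the bulge, edgeR called 0.00985% of all genes, which is 2 genes, and 0 of the 27. At an unadjusted p under 0.05 there were 0 of the 27 against 8.42% of all genes, and DESeq2 called 0 of the 27 against 1.93% of all genes. The 27 genes had a median log2 fold change of 0.18, with 19 of them above 0, and all genes of -0.03. In the SCA-1+ cells, 2.31% of all genes and 0 of the 27 were called by edgeR, with 1 of the 27, Mvk, at an unadjusted p under 0.05 against 14.6% of all genes, and DESeq2 called 0 of the 27 against 6.35% of all genes. The median was 0.03 for the 27 genes and 0.04 for all genes.

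Sc5d had the highest log2 fold change in the bulge, 1.11 (SE 0.52, 95% interval -0.04 to 2.27, edgeR adjusted p = 0.602). Its levels were 216, 100.4 and 34.001 normalized CPM in tdT+ bulge and 46.6, 76.3 and 39.2 in tdTneg bulge libraries, so the tdT+ libraries held both the highest and the lowest value. Without tdT+ bulge replicate 1 the log2 fold change was 0.31, without the library labelled replicate 2 it was 1.21 and without replicate 3 it was 1.55 (edgeR adjusted p = 0.947, 0.712 and 0.164). In the 29-week libraries, with 1 per group and no test, the difference of Sc5d in log2 normalized CPM was 2.22, and in the 32-week libraries the log2 fold change was 0.21. In SCA-1+ cells it was even, at 54.6, 61.5 and 62.6 in tdT+ and 59.4 and 43.2 in tdTneg libraries. Fdps stood at 24.3, 19.2 and 8.54 normalized CPM in tdT+ bulge and 7.83, 11.7 and 6.78 in tdTneg bulge libraries, a log2 fold change of 0.98 (SE 0.45, edgeR adjusted p = 0.599). With tdT+ bulge replicate 2 left out, Fdps had 0.90 (edgeR adjusted p = 0.754), and 0 of the 27 genes were called in this comparison too.

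Mvk, the mevalonate kinase, stood at 40.1, 46.3 and 47.5 normalized CPM in tdT+ SCA-1+ and at 34.9 and 29.6 in tdTneg SCA-1+ libraries. Its libraries did not overlap. This held for 3 of the 27 genes in this comparison, Mvk, Tm7sf2 and Nsdhl, and for 33.0% of all genes. The log2 fold change of Mvk was 0.47 (SE 0.17, edgeR adjusted p = 0.209), and that of Nsdhl, which was lower in tdT+ cells, -0.40 (SE 0.26, adjusted p = 0.557). In bulge cells the Mvk libraries overlapped, at 38.6, 31.8 and 32.3 in tdT+ and 34.7, 37.0 and 31.4 in tdTneg. Insig1 had log2 fold changes of 0.63 (SE 0.32) in bulge and 0.10 in SCA-1+ cells, and Hmgcs1 of 0.37 (SE 0.20) and 0.34 (SE 0.22), all short of the test. Without the library labelled tdT+ bulge replicate 2, the log2 fold changes in bulge were 0.50 for Insig1 and 0.21 for Hmgcs1 (edgeR adjusted p = 0.812 and 0.8802).

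**Figure D4:**
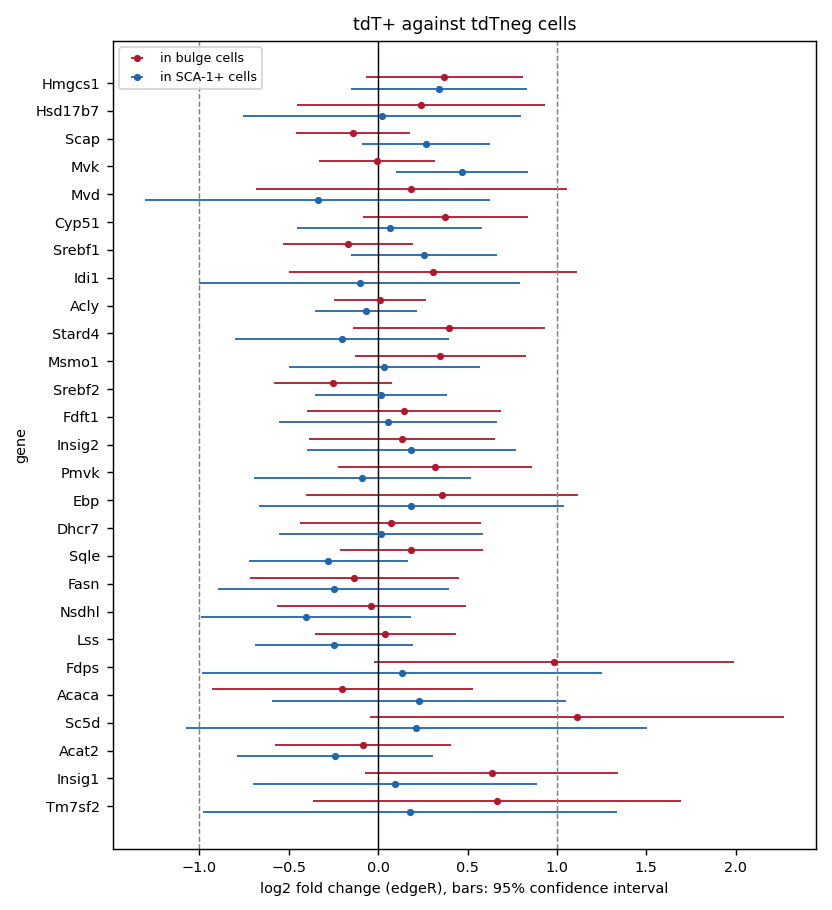
Log2 fold change of the 27 genes between tdT+ and tdTneg cells (positive: higher in tdT+) in bulge (red) and SCA-1+ cells (blue), in the gene order of the population comparison, with 95% confidence intervals and dashed lines at a 2-fold difference. Sc5d (1.11) and Fdps (0.98) lie farthest to the right in bulge cells with intervals that include 0.

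The difference between the populations in the tdT effect was tested as an interaction. By edgeR 0.389% of all genes and 0 of the 27 were called, with 0 of the 27 at an unadjusted p under 0.05 against 12.4% of all genes, and DESeq2 called 0 of the 27 against 4.38% of all genes. The lowest p belonged to Mvk, with a difference of 0.48 on the log2 scale (SE 0.22, edgeR adjusted p = 0.420). This comparison is the least precise, since the 95% interval lay between -1 and 1 for 12 of the 27 genes against 22.2% of all genes. Among the 11622 genes whose mean level was at least that of the lowest of the 27, the share was 38.7%.

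The other genes of lipid metabolism were taken from 4 lists of 51 genes in all, which hold further sterol and isoprenoid enzymes (10 genes), SREBP processing and sterol sensing (10), fatty acid supply, elongation and desaturation (16), and cholesterol uptake, storage and efflux (15). Between SCA-1+ and bulge cells, as the mean over tdT status, 1 of the 51 was called higher and 7 lower by edgeR, against the 11.6% of all genes called. Of the 7 lower genes, 5 were in the list on fatty acid supply, elongation and desaturation, 1 among the sterol and isoprenoid enzymes and 1 in sterol sensing. Within tdT+ 6 of the 51 were called lower against 8.45% of all genes called in either direction, within tdTneg 1 was called higher against 4.74%, and in the tdT comparisons and the interaction 0 were called by edgeR. In these last 3 comparisons the unadjusted p was under 0.05 for 3 of the 51 in bulge, 5 in SCA-1+ cells and 4 in the interaction, against 8.42%, 14.6% and 12.4% of all genes. DESeq2 called 0, 3 and 1 of the 51 there, against 1.93%, 6.35% and 4.38% of all genes. Between SCA-1+ and bulge cells DESeq2 called more of the 51 than edgeR did. It called 3 higher and 8 lower as the mean over tdT status, 1 higher and 11 lower within tdT+, and 3 higher and 2 lower within tdTneg, against 16.4%, 15.2% and 13.3% of all genes it called in either direction.

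Fads1, the delta-5 desaturase of polyunsaturated fatty acids, stood at 145, 86.1 and 22.4 normalized CPM in tdT+ bulge, 38.6, 123 and 32.5 in tdTneg bulge, 7.22, 6.87 and 5.47 in tdT+ SCA-1+, and 14.02 and 19.1 in tdTneg SCA-1+ libraries. All bulge libraries lay above all SCA-1+ libraries, with a log2 fold change of -2.83 (SE 0.52, edgeR adjusted p = 0.0051). Mlxipl, which encodes the carbohydrate-responsive factor ChREBP, fell by 4.77 on the log2 scale (SE 0.96, adjusted p = 0.00763). Its levels were 129, 47.3 and 7.55 normalized CPM in tdT+ bulge and 6.41, 67.8 and 5.88 in tdTneg bulge libraries, and 1.17 to 1.99 in SCA-1+ libraries. Thrsp, a lipogenic regulator, fell by 6.19 on the log2 scale (SE 1.64, adjusted p = 0.0272) and was at 17.6, 5.36 and 2.76 normalized CPM in tdT+ bulge and 0.0207, 7.85 and 0.122 in tdTneg bulge libraries, and between 0 and 0.316 in SCA-1+ libraries. The size of the Thrsp difference is imprecise, since it rests on few or no reads in the SCA-1+ libraries.

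These genes were highest in the same 3 bulge libraries, tdT+ replicates 1 and 2 and tdTneg replicate 2. Fads2 and Acss2, which were also called lower and are named here after their values were seen, had their 3 highest levels in those libraries too, at 120, 53.2 and 96.9 normalized CPM for Fads2 and 72.0, 39.6 and 31.5 for Acss2. Among the 27 genes, 6 had their 3 highest levels in those libraries, against 6.75% of all tested genes: Tm7sf2, Sc5d, Dhcr7, Insig1, Acaca and Fasn. They stood there at 39.5, 16.3 and 19.1 normalized CPM for Tm7sf2, 216, 100.4 and 76.3 for Sc5d and 75.7, 75.2 and 86.96 for Dhcr7. The 3 libraries were singled out from these values, so the counts are a description. Scd1, a stearoyl-CoA desaturase of the same list that is named here after its values were seen, was at 1404, 785 and 1222 normalized CPM there and at 98.1 to 345 elsewhere. Of the 10 sebaceous gland markers, Mgst1 was at 321, 179.5 and 162 normalized CPM there and at 18.4 to 73.1 elsewhere, and Plin5 at 1.18, 3.16 and 7.72 there and at 0 to 1.26 elsewhere. The markers Mc5r, Cidea, Elovl3, Awat2, Dgat2l6 and Pparg were at 6.53 or less in every library, with the highest Mc5r, Cidea and Elovl3 in tdTneg bulge replicates 1 or 3. Krt79 was at 895, 444 and 203 normalized CPM and Fabp5 at 37.7, 43.8 and 34.1 in the 3 libraries, within their ranges of 257 to 1043 and 10.8 to 180.01 elsewhere except for the 203 of Krt79, its lowest. The 10 markers summed to 1269, 681 and 421 CPM in the 3 libraries, to 371 to 1087 CPM in the other bulge libraries and to 967 to 1262 CPM in the SCA-1+ libraries. The 8 adipocyte markers summed to 12.7 to 133 CPM in bulge, 14.4 to 27.1 CPM in tdT+ SCA-1+ and 294 to 405 CPM in tdTneg SCA-1+ libraries. Fabp4 made up most of the high sums, at 377 and 267 CPM in the tdTneg SCA-1+ libraries and 119 CPM in tdT+ bulge replicate 2, the libraries in which the endothelial markers were highest, whereas Adipoq, Plin1, Lep, Cfd, Cidec and Retn were at 0.634 CPM or less in every library. The part of other cell types in these levels was not tested.

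Abcg1, a sterol exporter, rose in SCA-1+ cells. It stood at 14.5, 18.8 and 2.76 normalized CPM in tdT+ bulge, 5.56, 6.85 and 3.12 in tdTneg bulge, 46.3, 32.7 and 47.3 in tdT+ SCA-1+, and 38.4 and 44.6 in tdTneg SCA-1+ libraries. The SCA-1+ libraries all lay above the bulge libraries, with a log2 fold change of 2.40 (SE 0.42, edgeR adjusted p = 0.00363), and of 3.003 (SE 0.62, adjusted p = 0.0233) within tdTneg. Abca1, another sterol exporter, fell by 1.32 on the log2 scale within tdT+ (SE 0.33, edgeR adjusted p = 0.0297), from 432, 265 and 175 normalized CPM in tdT+ bulge to 159.9, 96.6 and 92.3 in tdT+ SCA-1+ libraries, and had a log2 fold change of 0.08 within tdTneg. Within tdT+ Fads1, Mlxipl and Thrsp were called lower as well, with log2 fold changes of -3.69 for Fads1 and -5.64 for Mlxipl.

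As the mean over tdT status, Fads1 and Abcg1 were called in 16 of 17 alternative fits, Mlxipl in 14 of 17, Thrsp in 9 of 16, Fads2 in 10 of 17 and Acss2 in 8 of 17, and none of the 6 in the 32-week libraries alone (edgeR adjusted p up to 0.328). Mlxipl was also lost without either tdTneg SCA-1+ library, and Thrsp and Fads2 without either of these, any tdT+ SCA-1+ library or tdT+ bulge replicate 1. Acss2 was lost without any SCA-1+ library, tdT+ bulge replicate 1 or 2, or tdTneg bulge replicate 2. Without the library labelled tdT+ bulge replicate 2 the log2 fold change was -2.83 for Fads1, -4.85 for Mlxipl, -6.32 for Thrsp and 2.64 for Abcg1 (edgeR adjusted p = 0.00964, 0.0121, 0.0372 and 0.00388). The count of lower genes among the 51 was 5 without this library, 2 without tdT+ bulge replicate 1 or any tdT+ SCA-1+ library, and 1 without either tdTneg SCA-1+ library.

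Within tdT+, Fads1 was called in 17 of 18 fits, Mlxipl in 14 of 18 and Abca1 in 10 of 18. Thrsp was called in 8 of 17 and had an edgeR adjusted p of 0.0514 with the replicate block, and it was lost as well without tdT+ bulge replicate 1 or 2 or any SCA-1+ library. Within tdT+, Mlxipl was lost without any tdT+ SCA-1+ library, and Abca1 without tdT+ bulge replicate 1 or 2, tdT+ SCA-1+ replicate 2 or 3, or either tdTneg SCA-1+ library. Abca1 was also lost in the fit on the groups compared alone. Fads1, Mlxipl, Thrsp and Abca1 all lost their calls within tdT+ in the 32-week libraries alone. The call of Abcg1 within tdTneg was lost without tdTneg bulge replicate 1 or 3 or either tdTneg SCA-1+ library.

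**Figure D5:**
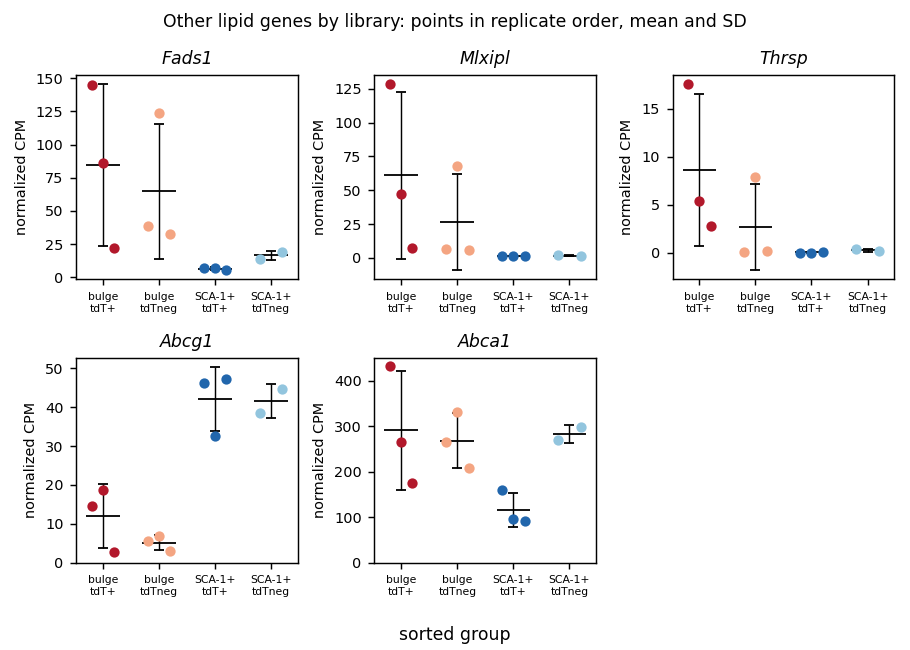
Normalized CPM of Fads1, Mlxipl, Thrsp, Abcg1 and Abca1 in each library (points, in replicate order), with the mean (line) and SD (bar) of each sorted group. Fads1, Mlxipl and Thrsp are high in tdT+ bulge replicates 1 and 2 and tdTneg bulge replicate 2, and Abcg1 is at 32.7 or more in every SCA-1+ library.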

How the data were processed

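Epidermal cells were isolated from dorsal skin with thermolysin, sorted, and sequenced from TruSeq RNA v2 libraries. Per the labels and the study's methods, the authors aligned reads to mm10 with STAR and counted them per Ensembl gene with featureCounts, without a stated strand setting, and deposited raw counts per gene, 1 table per library. The 55536 Ensembl IDs all matched GENCODE M21 names. A single row outside them (at most 0.0307% of a library's counts) was left out of library sizes and tests.

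Counts were tested with edgeR 4.0.16 (TMM factors 0.893 to 1.05, filterByExpr, quasi-likelihood, 4 groups in a single fit, Benjamini-Hochberg over 20307 genes). Genes were called at a log2 fold change beyond 1 in either direction with an adjusted p under 0.05. Levels are TMM-normalized CPM. DESeq2 1.42.0, other scalings and filters, a replicate block, subsets of groups or ages and each library left out were alternatives. On simulated data with 200 genes changed by a log2 fold of 2, edgeR recovered 75% for the population comparison (8 false calls), 48% (4) for tdT in bulge and 49% (0) for tdT in SCA-1+ cells, among 19284, 19295 and 19328 genes. Intervals cover the spread between libraries. p-values rest on pools of 2 mice as replicates.

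Same-numbered libraries were read as coming from the same pool of mice, from the study's description of its replicates. Their deviations from the group means correlated with a median of 0.0828 over 15 pairs (-0.415 to 0.589), against -0.0226 over 30 other pairs.

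The 27 genes, the other gene lists and the motifs were chosen with earlier results of these data known. All 27 were to be named, and of the other lipid genes those called in a comparison, at most 5 in each direction by smallest p, of which some are given as counts here. Marker lists were summed. Near-identical transcripts were found with blastn at 95% identity over at least 300 bases.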

Additional observations from a re-analysis of the deposited data

Results flagged for a closer look

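The count row outside the Ensembl genes, which no comparison uses, reached 307 CPM in a tdT+ library, against at most 4.89 CPM in the tdTneg libraries. No sorted group had the 4 libraries needed to look for a library far from its group, and none of the 27 genes passed the test of a difference between populations in the tdT effect.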

How the results depend on the processing

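In the comparison of SCA-1+ with bulge cells as the mean over tdT status, the count of the 27 genes called was 0 with edgeR as described, 1 with DESeq2, 1 with all genes of at least 1 count in any library, 1 with at least 10 counts in every library, and 3 without the fold threshold. Within tdT+ it was 0 with edgeR as described, 2 with DESeq2, 2 with at least 1 count in any library and 1 with at least 10 counts in every library. Leaving out each library in turn gave 0 to 1 called for the mean over tdT status and 0 to 3 within tdT+, where the calls came without tdT+ bulge replicate 3 (Insig1, Sc5d and Tm7sf2) or without tdT+ SCA-1+ replicate 3 (Insig1). The cause of these changes was not tested. The counts of the other 4 comparisons were 0 under every alternative run. With the replicate block the count was 0 in each of the 6 comparisons, and beyond the values given for Hmgcs1 and Insig1 it changed, of the other named lipid genes, the call of Thrsp within tdT+.

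Of 3024 refitted or recomputed log2 fold changes of the 27 genes, 13 newly passed both thresholds, and 0 changed sign where the 95% interval of the reported value excluded 0. The 29-week libraries alone, an alternative added after the data were seen, moved 77 of 162 of them by more than an SE. With CPM on library totals, 102 of 108 group means moved by less than the SD between libraries. The median log2 fold change of all genes between the populations was -0.09 with TMM and -0.07 with the size factors of DESeq2 in edgeR. It was -0.44 when all genes with at least 1 count were kept. For the 12633 genes with at least 10 counts in every library it was -0.0012. The middle of all genes thus depends on the filter, which limits how small negative values of single genes can be read. Fits that leave 1 tdTneg SCA-1+ library assume that it varies like the other groups. The fit on the groups compared alone applies to the 4 pairwise comparisons. Depth did not limit detection, since the lowest count of any of the 27 genes in a library was 72.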

Other observations

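Other lists describe what else the libraries held. Interfollicular epidermis markers summed to 1087 to 4681 CPM in bulge and 3585 to 10317 CPM in SCA-1+ libraries, and pan-keratinocyte genes to 12879 to 19314 and 18503 to 32733 CPM. Langerhans cell markers summed to 476 to 735 CPM in bulge, 462 to 649 CPM in tdT+ SCA-1+ and 899 to 1050 CPM in tdTneg SCA-1+ libraries. Melanocyte markers summed to 93.5 to 159 CPM in bulge and 15.4 to 57.1 CPM in SCA-1+ libraries, and fibroblast markers to 87.8 to 297 and 26.9 to 478 CPM. Cycling genes summed to 261 to 420 CPM in bulge and 388 to 807 CPM in SCA-1+ libraries, and genes of the dissociation response to 10838 to 18725 and 12269 to 18019 CPM.

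The summed level of the 18 cholesterol enzymes ran from 956 CPM in tdT+ bulge replicate 3 to 1517 CPM in tdT+ bulge replicate 1, so the lowest and the highest library belong to the same sorted group. For the 3 fatty acid enzymes the sums ran from 433 CPM in tdT+ SCA-1+ replicate 2 to 787 CPM in tdTneg bulge replicate 2.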
